A study of Homo sapiens with 18 samples.

Results

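The genes described here move, store, release and sense iron: TFRC and SLC11A2 (uptake), FTH1 and FTL (ferritin storage), NCOA4 (release from ferritin), SLC40A1 (export), IREB2, ACO1 and FBXL5 (sensing) and SLC25A37 (import into mitochondria). They were chosen by symbol, and all 10 were found among the 23686 gene symbols of the tables. RNA was sequenced from OCI-Ly1 and TMD8, established human diffuse large B-cell lymphoma lines of the germinal-center and the activated B-cell type. Each line received 0.01% DMSO as vehicle or JIB-04 at 150 nM or at 500 nM, and each of these 6 groups had 3 libraries, 18 in all. OCI-Ly1 grew in IMDM and TMD8 in RPMI, both with 10% serum, so that line and medium cannot be told apart, and the labels give no treatment time. JIB-04 is a pyridine hydrazone that can bind metal ions and is known as an inhibitor of the Jumonji histone demethylases, enzymes that use iron. The labels describe the 3 libraries of a group as technical replicates and do not say whether separate cultures were treated, so the p-values measure only the spread between these libraries, which may be technical.

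Cells read their iron through a pair of RNA-binding proteins, IRP1 (encoded by ACO1) and IRP2 (encoded by IREB2). When iron is scarce they bind a short hairpin, the iron-responsive element. In the 3′ untranslated region of TFRC, the transferrin receptor, binding protects the mRNA from decay. In the 5′ untranslated region of the ferritin and ferroportin mRNAs it blocks translation, which a measurement of RNA does not see, and the ubiquitin ligase subunit FBXL5 removes IRP2 when iron is plentiful.

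The hairpin was looked for in the annotated GENCODE transcripts, on the transcript's own strand, as a C, 5 bases, the loop CAGTGN and 5 bases that pair with the first 5, with G-U pairs allowed. Of 19669 protein-coding genes, 169 (0.859%) held a match in an untranslated region, and 4 of the 10 iron genes were among them: TFRC, FTH1, FTL and SLC40A1. Their elements are shown because they divide these 4 matched mRNAs into 1 that the IRPs stabilise and 3 whose translation they block. Each is printed 5′ to 3′ as DNA, 30 bases long, with the 6 bases of the loop in capitals. TFRC carried 4 matches in its 3′ untranslated region, numbered here by the loop's first base in the transcript TFRC-201, and the other 3 genes carried 1 each in the 5′ untranslated region.
TFRC, 3′, loop from base 3400: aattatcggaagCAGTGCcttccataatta
TFRC, 3′, loop from base 3804: cattatcgggagCAGTGTcttccataatgt
TFRC, 3′, loop from base 3869: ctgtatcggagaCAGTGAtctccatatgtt
TFRC, 3′, loop from base 3916: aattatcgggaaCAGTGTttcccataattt
FTH1, 5′: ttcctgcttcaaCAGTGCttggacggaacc
FTL, 5′: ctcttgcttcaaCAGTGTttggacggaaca
SLC40A1, 5′: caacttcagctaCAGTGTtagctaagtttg
A match is a description of the letters, and the absence of one in the other 6 genes says only that this form was not found there.

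The OCI-Ly1 libraries held 17579732 to 32651115 estimated counts each, and the TMD8 libraries held 9550092 to 20509500. Of the 10 genes, 9 passed the filter on low counts in each line, and SLC40A1 did not. Levels below are counts per 1000000 (CPM) scaled between the libraries of a line, differences are log2 fold changes with their standard error (SE) from edgeR's quasi-likelihood test, and a gene was called at a Benjamini-Hochberg adjusted p under 0.05 over all genes tested. All 5 B-cell markers exceeded 1 CPM in every library, while the summed level of 3 T-cell, 3 monocyte and 4 erythroid markers stayed at or below 6.74 CPM in each case. Of the T-cell markers, CD3D also exceeded 1 CPM in every OCI-Ly1 library. Its means there were 5.28, 3.63 and 2.03 CPM with DMSO, 150 nM and 500 nM. In bulk RNA, fewer cells that express a gene and less of its RNA per cell cannot be told apart.

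In OCI-Ly1 with 500 nM JIB-04, the ferritin heavy chain rose most of the tested iron genes, the transferrin receptor rose and the mRNA of IRP2 fell. FTH1 was 1.77-fold, TFRC 1.44-fold and IREB2 0.753-fold of its DMSO level. In TMD8 the transferrin receptor also rose and IREB2 also fell, but both ferritin chains fell, FTL to 0.643-fold and FTH1 to 0.913-fold. At 500 nM, 3 genes were called higher and 2 lower of 9 tested in OCI-Ly1, where 53.6% of all 15638 tested genes were called (27.7% higher and 25.9% lower). In TMD8, 1 was called higher and 4 lower of 9, against 60.7% of 15363 genes (29.9% higher and 30.7% lower). The median over the 9 genes was -0.11 in OCI-Ly1 and -0.10 in TMD8, beside -0.0033 and 0.04 over all genes tested. The libraries of the dose and of DMSO did not overlap for 6 of the 9 genes in OCI-Ly1 (60.7% of all genes) and for 5 of 9 in TMD8 (66.4%).

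The lower dose reached fewer of these genes in OCI-Ly1. At 150 nM, 1 of 9 was called there, TFRC, where 0.889% of all genes were called (0.748% higher). In TMD8, 1 was called higher and 3 lower of 9 at 150 nM, against 44.2% of all genes (19.2% higher and 25.0% lower). Between 150 nM and 500 nM, 3 were called higher and 2 lower in OCI-Ly1, where 46.2% of all genes were called (25.1% higher and 21.1% lower), and 3 lower in TMD8, where 28.7% were called (13.7% higher and 15.0% lower). At 150 nM the libraries did not overlap with those of DMSO for 2 of 9 genes in OCI-Ly1 (14.0% of all genes) and 6 of 9 in TMD8 (51.4%), and between the doses for 8 of 9 in OCI-Ly1 (55.6%) and 4 of 9 in TMD8 (44.8%).

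**Figure D1:**
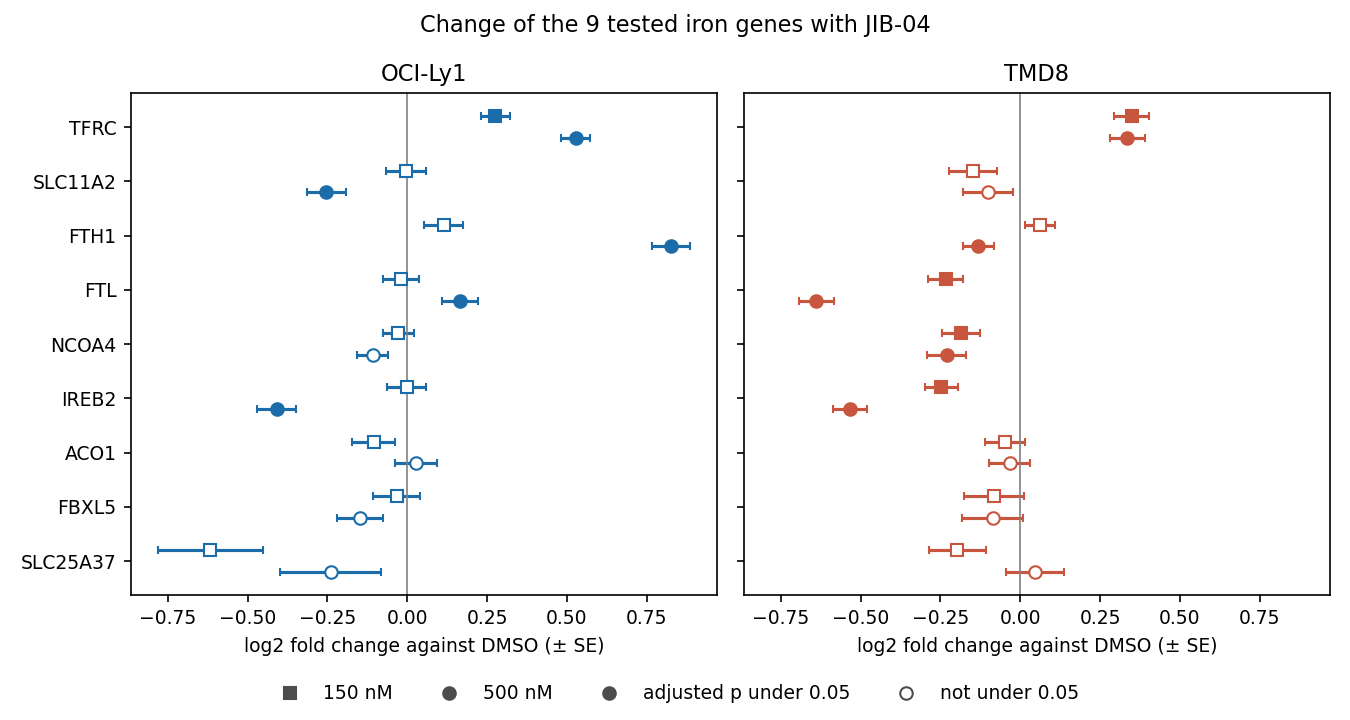
Log2 fold change against DMSO (± SE, edgeR) of the 9 tested iron genes, squares for 150 nM and circles for 500 nM, filled where the adjusted p was under 0.05. TFRC lies to the right of 0 at both doses in both lines (in TMD8 at 500 nM it turns to -0.042 on the uncentered TPM scale), and FTH1 at 500 nM lies at 0.83 in OCI-Ly1 and at -0.13 in TMD8.

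Among the uptake genes, TFRC, which brings transferrin-bound iron into the cell, was measured in OCI-Ly1 at 525, 557 and 536 CPM with DMSO, at 629, 671 and 660.1 CPM with 150 nM and at 804, 767 and 761 CPM with 500 nM. The 3 groups did not overlap and rose with dose. The change was 0.28 (SE 0.04, adjusted p = 0.0025) at 150 nM, 0.53 (SE 0.04, adjusted p = 2.2e-08) at 500 nM and 0.25 (SE 0.04, adjusted p = 1.6e-04) from 150 nM to 500 nM. At 150 nM the call was lost on TPM values centered on each library's median (0.27, limma adjusted p = 0.052).

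In TMD8, TFRC stood at 1136, 1077 and 1066 CPM with DMSO, at 1456, 1439 and 1284 CPM with 150 nM and at 1359, 1413 and 1366 CPM with 500 nM. Every treated library lay above every DMSO library, and the doses overlapped. The change was 0.35 (SE 0.06, adjusted p = 6.4e-05) at 150 nM and 0.34 (SE 0.06, adjusted p = 4.3e-05) at 500 nM, with -0.01 (SE 0.06, adjusted p = 0.89) between the doses. On the uncentered TPM scale the TMD8 value at 150 nM was 0.19 (limma adjusted p = 0.19) and that at 500 nM turned to -0.042 (limma adjusted p = 0.76), while centering each library on its median gave 0.21 (limma adjusted p = 0.0083) at 500 nM. The share of TPM held by the 10 highest rows moved with the treatment in TMD8 and, at 500 nM, in OCI-Ly1. For TMD8 it was 54.4 to 62.1% with DMSO, 64.8 to 68.2% with 150 nM and 71.2 to 74.2% with 500 nM. For OCI-Ly1 it was 17.5 to 17.8% with DMSO, 16.6 to 17.8% with 150 nM and 22.9 to 24.7% with 500 nM.

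SLC11A2, which encodes the divalent metal transporter DMT1, was measured in OCI-Ly1 at 50.4, 55.0 and 52.9 CPM with DMSO, at 53.6, 53.0 and 50.9 CPM with 150 nM and at 43.6, 46.5 and 42.6 CPM with 500 nM. The 500 nM libraries lay below the other 6. It fell by 0.25 (SE 0.06, adjusted p = 0.0024) at 500 nM, whereas uncentered TPM gave -0.03 (limma adjusted p = 0.67), and its value at 150 nM was -0.0040 (SE 0.06, adjusted p = 0.99). In TMD8 it ran from 19.5 to 24.8 CPM over the 9 libraries and was not called, at -0.15 (SE 0.07, adjusted p = 0.12) with 150 nM and -0.10 (SE 0.08, adjusted p = 0.27) with 500 nM, whereas uncentered TPM called both (-0.26 and -0.37, limma adjusted p = 0.043 and 0.0031). The 2 uptake genes thus moved in opposite directions in OCI-Ly1 at 500 nM.

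The ferritin chains build the shell that stores iron. FTH1, the heavy chain with the iron-oxidising site, stood in OCI-Ly1 at 124, 127 and 136 CPM with DMSO, at 143, 133 and 143 CPM with 150 nM and at 246, 225 and 215 CPM with 500 nM. The 500 nM libraries lay far above the other 6, which overlapped each other. The change was 0.83 (SE 0.06, adjusted p = 3.4e-09) at 500 nM, 0.71 (SE 0.06, adjusted p = 3.5e-08) between the doses and 0.11 (SE 0.06, adjusted p = 0.55) at 150 nM.

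In TMD8, FTH1 was at 244, 235 and 235 CPM with DMSO, at 235, 248 and 261 CPM with 150 nM and at 213, 218 and 219.6 CPM with 500 nM. The 500 nM libraries lay just below all others. The change was -0.13 (SE 0.05, adjusted p = 0.024) at 500 nM, -0.19 (SE 0.05, adjusted p = 0.0051) between the doses and 0.06 (SE 0.05, adjusted p = 0.30) at 150 nM. The call at 500 nM was lost without TMM scaling (-0.038, adjusted p = 0.47) and without 500 nM replicate 1 (-0.12, adjusted p = 0.091) or replicate 2 (-0.14, adjusted p = 0.056).

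FTL, the ferritin light chain, was measured in TMD8 at 2495, 2181 and 2273 CPM with DMSO, at 1988, 1993 and 1932 CPM with 150 nM and at 1459.5, 1479 and 1527 CPM with 500 nM. The groups did not overlap and fell with dose. The change was -0.23 (SE 0.06, adjusted p = 0.0023) at 150 nM, -0.64 (SE 0.06, adjusted p = 2.0e-08) at 500 nM and -0.41 (SE 0.06, adjusted p = 4.0e-05) between them.

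In OCI-Ly1, FTL stood at 747, 824 and 766 CPM with DMSO, at 794, 734 and 781 CPM with 150 nM and at 956, 846 and 818 CPM with 500 nM. The lowest 500 nM library lay below the highest DMSO library. The change was 0.16 (SE 0.06, adjusted p = 0.020) at 500 nM, -0.02 (SE 0.06, adjusted p = 0.95) at 150 nM and 0.18 (SE 0.06, adjusted p = 0.013) between the doses. The call at 500 nM was lost on centered TPM (0.07, limma adjusted p = 0.44), without DMSO replicate 1 (0.13, adjusted p = 0.092) or replicate 3 (0.15, adjusted p = 0.060), and without 500 nM replicate 1 (0.09, adjusted p = 0.18).

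Both ferritin genes have processed copies in the genome whose reads could be exchanged with theirs. The FTH1P3 row held 0.79 to 3.68 CPM and the FTLP10 row 0.254 to 1.45 CPM over the 18 libraries. Summing all copies into FTH1 and FTL left the 500 nM values at 0.82 and 0.16 in OCI-Ly1 and at -0.14 and -0.64 in TMD8.

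**Figure D2:**
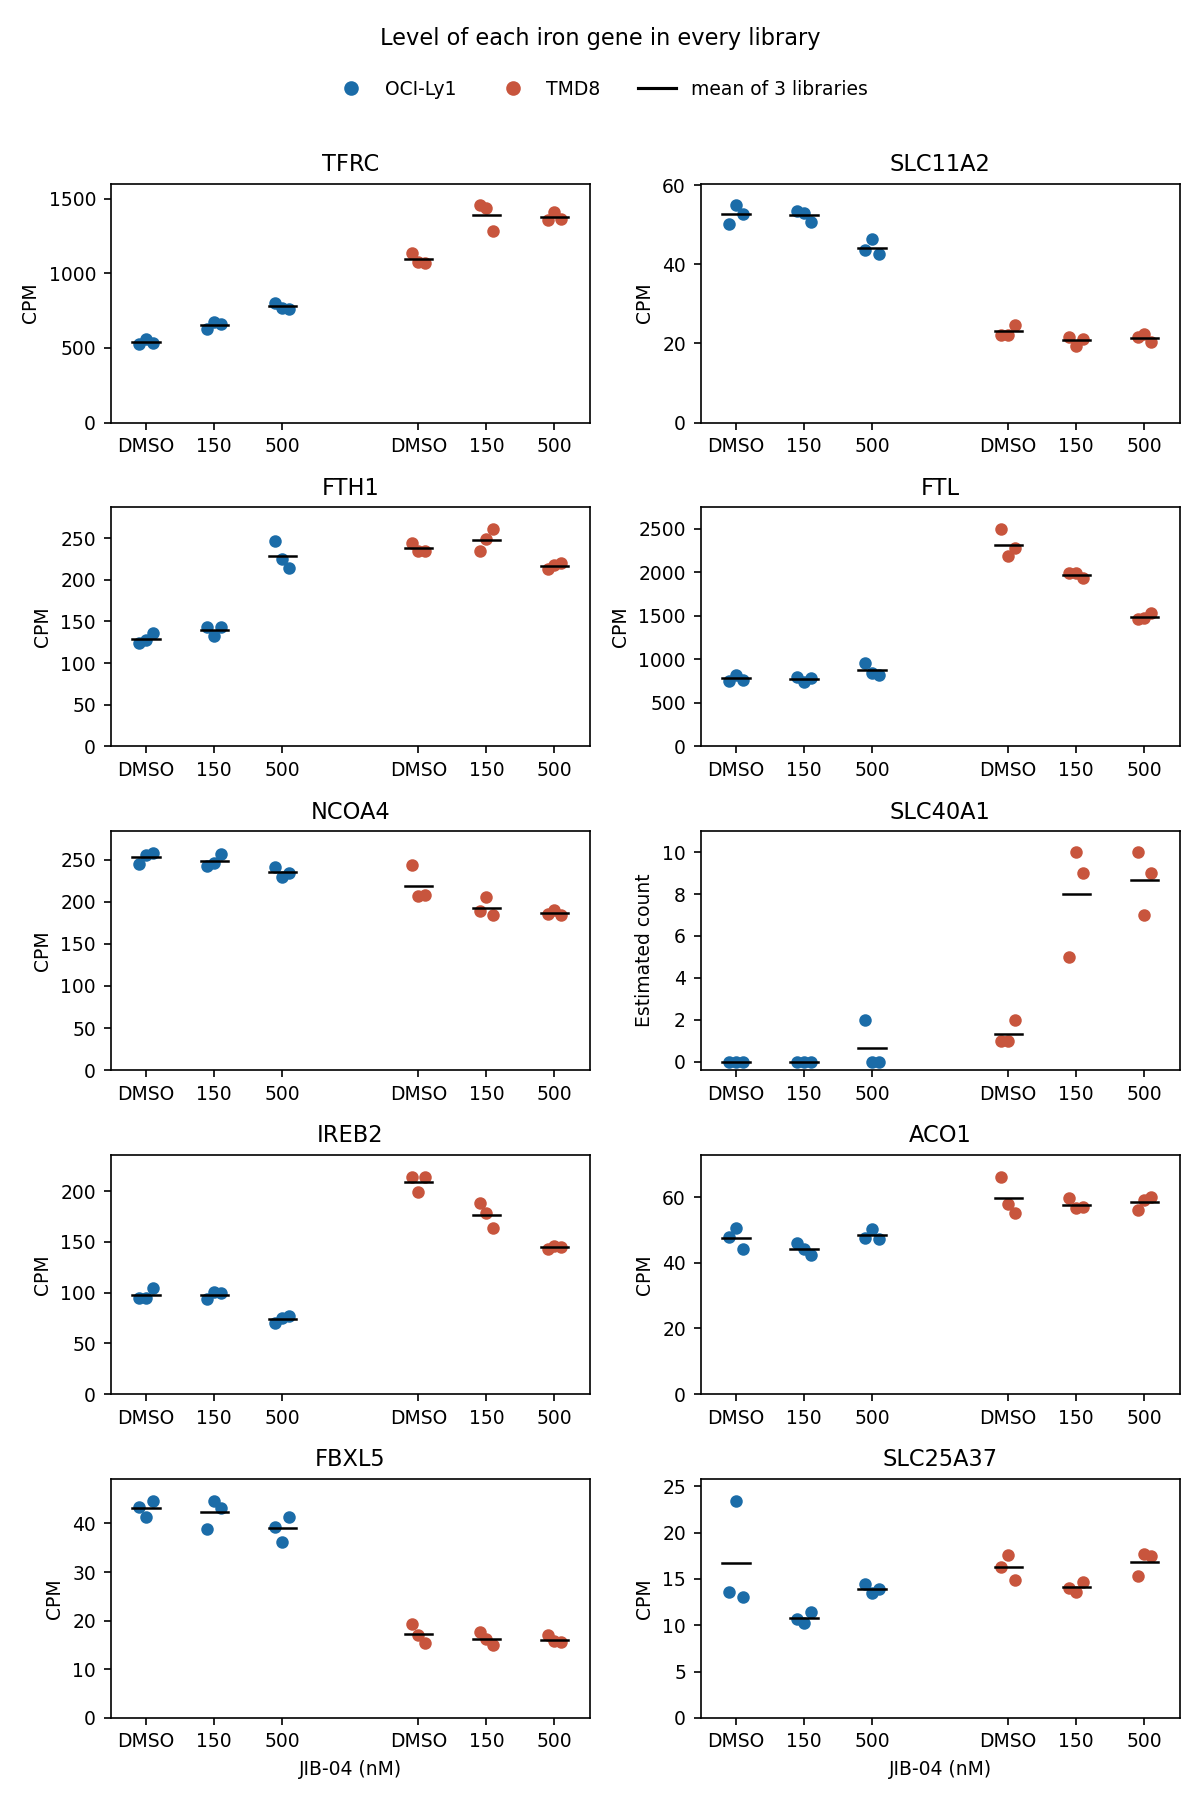
Level of each of the 10 iron genes in every library, in CPM scaled within a line (SLC40A1 as estimated counts), OCI-Ly1 in blue and TMD8 in red; the bars mark the mean of 3 libraries. FTH1 rises from 129 to 228 CPM on average in OCI-Ly1 and FTL falls from 2316 to 1488 CPM in TMD8 between DMSO and 500 nM, while ACO1 stays between 42.3 and 66.2 CPM in all 18 libraries.

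NCOA4, the receptor that delivers ferritin to lysosomes so that its iron is released, was at 243, 207 and 207 CPM in the DMSO libraries of TMD8, at 189, 205 and 184 CPM with 150 nM and at 186, 189.6 and 184 CPM with 500 nM. All treated libraries lay below the DMSO libraries, of which replicate 1 stood highest. The change was -0.19 (SE 0.06, adjusted p = 0.018) at 150 nM and -0.23 (SE 0.06, adjusted p = 0.0032) at 500 nM. The call at 150 nM was lost without DMSO replicate 1 (-0.11, adjusted p = 0.076), without 150 nM replicate 3 (-0.12, adjusted p = 0.15), without TMM scaling (-0.10, adjusted p = 0.13) and when the 500 nM libraries were left out of the model (-0.15, adjusted p = 0.094). In OCI-Ly1, NCOA4 ran from 229 to 258 CPM, with a value of -0.11 (SE 0.05, adjusted p = 0.065) at 500 nM that was called by DESeq2 (-0.11, adjusted p = 0.049), on centered TPM (-0.20, limma adjusted p = 0.0048) and without DMSO replicate 1 (-0.14, adjusted p = 0.043).

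SLC40A1 encodes ferroportin, the only known cellular iron exporter, and was close to undetected. OCI-Ly1 had 0 counts in its 6 DMSO and 150 nM libraries and 2, 0 and 0 counts with 500 nM. A count of 0 over the DMSO group allowed up to 0.0438 counts per 1000000, counting error only. TMD8 had 1, 1 and 2 counts with DMSO, 5, 10 and 9 with 150 nM and 10, 7 and 9 with 500 nM. Every treated TMD8 library was above every DMSO library although the DMSO libraries were not shallower as a group: 4 counts fell in 55683060 with DMSO, 24 in 47516827 with 150 nM and 26 in 37459860 with 500 nM. Per total counts, the 150 nM level was 7.03 times (95% interval 2.42 to 27.9) and the 500 nM level 9.66 times (95% interval 3.35 to 38.1) the DMSO level; the exact intervals cover counting error only. These levels, 0.505 and 0.694 counts per 1000000, remained under 1, and the gene was not tested within a line.

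Among the sensors, IREB2 fell in both lines. In OCI-Ly1 it stood at 94.9, 94.6 and 105 CPM with DMSO, at 93.8, 101 and 99.3 CPM with 150 nM and at 69.8, 74.9 and 77.1 CPM with 500 nM. The 500 nM libraries lay below the other 6, with a change of -0.41 (SE 0.06, adjusted p = 2.2e-05) against DMSO and -0.41 (SE 0.06, adjusted p = 3.0e-05) against 150 nM; the 150 nM value was -0.0017 (SE 0.06, adjusted p = 1).

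In TMD8, IREB2 was at 214, 199.7 and 214 CPM with DMSO, at 188, 178 and 163 CPM with 150 nM and at 143, 146 and 145 CPM with 500 nM. The 3 groups did not overlap and fell with dose. The change was -0.25 (SE 0.05, adjusted p = 9.5e-04) at 150 nM, -0.53 (SE 0.05, adjusted p = 1.2e-07) at 500 nM and -0.29 (SE 0.05, adjusted p = 7.1e-04) between the doses. IREB2 at 500 nM kept its direction and its call in both lines under each of the 15 alternatives run.

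ACO1, which encodes IRP1, the other IRP and in its iron-sulfur form a cytosolic aconitase, was not called by edgeR in any comparison of a dose with DMSO. The 9 OCI-Ly1 libraries held 42.3 to 50.5 CPM and the 9 TMD8 libraries 55.2 to 66.2 CPM, with values of 0.03 (SE 0.07, adjusted p = 0.74) and -0.03 (SE 0.06, adjusted p = 0.68) at 500 nM. At that dose limma called ACO1 higher in OCI-Ly1 on unfiltered TPM (0.16, adjusted p = 0.048) and lower in TMD8 on uncentered TPM (-0.37, adjusted p = 0.012). FBXL5 lay between 36.2 and 44.7 CPM in OCI-Ly1 and between 15.0 and 19.2 CPM in TMD8. Its values at 500 nM were -0.15 (SE 0.07, adjusted p = 0.090) and -0.09 (SE 0.10, adjusted p = 0.46), and limma called it lower on centered TPM in OCI-Ly1 (-0.23, adjusted p = 0.019) and on uncentered TPM in TMD8 (-0.35, adjusted p = 0.010).

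SLC25A37, mitoferrin-1, which carries iron across the inner mitochondrial membrane, depended on a single library in OCI-Ly1. It stood there at 13.6, 23.5 and 13.0 CPM with DMSO, at 10.7, 10.2 and 11.4 CPM with 150 nM and at 14.4, 13.5 and 13.9 CPM with 500 nM. DMSO replicate 2 was the highest of the 9 libraries. The value at 150 nM was -0.62 (SE 0.16, adjusted p = 0.10) and at 500 nM -0.24 (SE 0.16, adjusted p = 0.21), and without DMSO replicate 2 these were -0.31 and 0.06; without DMSO replicate 3 the 500 nM value was called (-0.39, adjusted p = 0.044). DESeq2 (-0.62, adjusted p = 0.020) and a model without the filter on low counts (-0.61, adjusted p = 0.0014) called the 150 nM value, as did edgeR without DMSO replicate 1 (-0.74, adjusted p = 0.048) or replicate 3 (-0.76, adjusted p = 0.023). In TMD8 it ran from 13.6 to 17.7 CPM and was not called, at -0.20 (SE 0.09, adjusted p = 0.086) with 150 nM and 0.05 (SE 0.09, adjusted p = 0.68) with 500 nM. Uncentered TPM called it lower at both doses (-0.30 and -0.28, limma adjusted p = 0.046 and 0.042), and the 150 nM value was also called on centered TPM (-0.21, limma adjusted p = 0.033) and without DMSO replicate 3 (-0.26, adjusted p = 0.040).

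Ratios of 2 genes inside one library do not depend on how libraries are scaled to each other, and 4 were computed after the values above were seen. FTH1 over FTL rose in both lines: 0.166 ± 0.0116 (SD, n = 3 for each group), 0.181 ± 0.00121 and 0.262 ± 0.00396 for DMSO, 150 nM and 500 nM in OCI-Ly1, and 0.103 ± 0.00502, 0.126 ± 0.00851 and 0.146 ± 0.00187 in TMD8. The heavy chain thus gained on the light chain, 1.58-fold in OCI-Ly1 and 1.42-fold in TMD8 at 500 nM, although FTH1 rose in one line and fell in the other. TFRC over FTL also rose in both lines between DMSO and 500 nM, in OCI-Ly1 from 0.693 ± 0.0144 to 0.893 ± 0.0465, and TMD8 went from 0.473 ± 0.0195 to 0.927 ± 0.0305.

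TFRC over FTH1 separated the lines at 500 nM. In OCI-Ly1 it went from 4.19 ± 0.229 to 3.41 ± 0.143, and in TMD8 from 4.60 ± 0.0619 to 6.36 ± 0.128 (SD, n = 3). IREB2 over ACO1, which sets the 2 IRP mRNAs against each other, went down in both lines, from 2.07 ± 0.26 to 1.53 ± 0.0919 in OCI-Ly1, while TMD8 went from 3.52 ± 0.329 to 2.48 ± 0.0638. In 15 of the 16 comparisons of a dose with DMSO the libraries did not overlap, and in each of these the two-sided exact permutation test gave p = 0.1, the smallest that 3 against 3 allows (0.107 after adjustment over the 16). The exception was IREB2 over ACO1 at 150 nM in OCI-Ly1 (exact permutation p = 0.5). Ratios of TPM stand at other levels, since TPM divides by length, but their log2 changes against DMSO, and those with each library left out in turn, lay within 1 SD of the log2 changes of the count ratios.

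**Figure D3:**
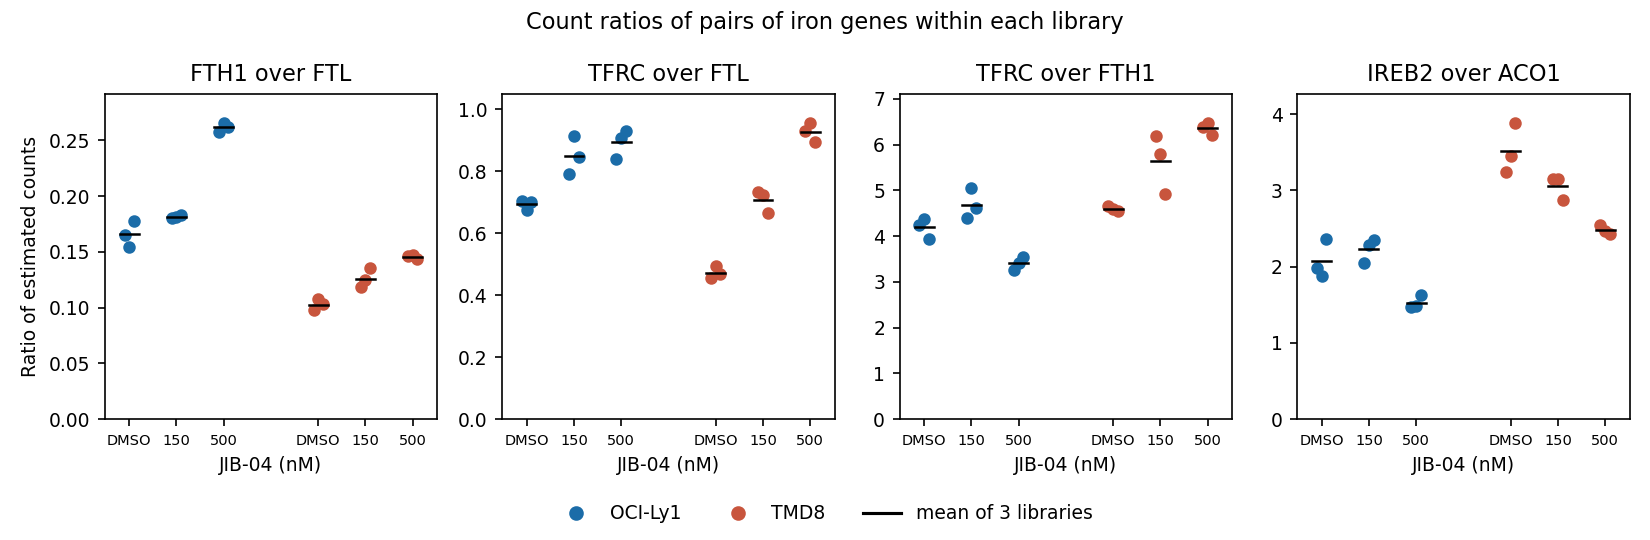
Ratios of estimated counts of gene pairs within each library, by JIB-04 dose, OCI-Ly1 in blue and TMD8 in red; the bars mark the mean of 3 libraries. FTH1 over FTL and TFRC over FTL rise in both lines, and TFRC over FTH1 goes down to 3.41 in OCI-Ly1 and up to 6.36 in TMD8 at 500 nM.

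The difference between the lines was tested directly in a model of all 18 libraries, as the change in OCI-Ly1 minus the change in TMD8. At 500 nM it was 0.99 (SE 0.08, adjusted p = 2.2e-10) for FTH1, 0.83 (SE 0.09, adjusted p = 2.0e-08) for FTL and 0.22 (SE 0.08, adjusted p = 0.020) for TFRC. These 3 of 10 genes were called, all on the side of OCI-Ly1, where 46.4% of 16604 genes were called (28.2% in that direction and 18.1% in the other). IREB2 at 500 nM, 0.15 (SE 0.08, adjusted p = 0.13), was not called, but it was on uncentered TPM (0.60, limma adjusted p = 5.5e-04). At 150 nM, 1 of 10 was called, IREB2 (0.25, SE 0.08, adjusted p = 0.029), where 23.3% of all genes were called (15.0% in that direction and 8.33% in the other). At both doses the 10 include SLC40A1. It held at most 2 counts in any OCI-Ly1 library (SE 1.67 at 500 nM) and could hardly be called. The TFRC call was lost without OCI-Ly1 500 nM replicate 1 (0.20, adjusted p = 0.055), and the IREB2 call without TMM scaling (0.17, adjusted p = 0.12) and without OCI-Ly1 DMSO replicate 1 or 2, OCI-Ly1 150 nM replicate 2 or 3, TMD8 DMSO replicate 1 or 3 or TMD8 150 nM replicate 3 (adjusted p from 0.056 to 0.11).

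Before treatment, the share of these genes that differed between the lines was near that of all genes: 2 of 10 were called higher and 6 lower in OCI-Ly1, where 76.7% of all genes were called (37.8% higher and 39.0% lower), and the DMSO libraries of the lines did not overlap for 8 of 10 (76.4% of all genes). With DMSO, OCI-Ly1 had less of the ferritin light chain (-1.69, SE 0.06, adjusted p = 2.1e-19), of IREB2 (-1.22, SE 0.06, adjusted p = 1.0e-16), of TFRC (-1.14, SE 0.06, adjusted p = 9.6e-17) and of FTH1 (0.499-fold, adjusted p = 2.9e-15) than TMD8. On uncentered TPM the calls of TFRC (-0.17, limma adjusted p = 0.062) and FTH1 (-0.038, limma adjusted p = 0.68) were lost. It had more FBXL5 (1.21, SE 0.08, adjusted p = 3.5e-13) and SLC11A2 (1.07, SE 0.07, adjusted p = 2.5e-14). ACO1 was lower in OCI-Ly1 (-0.45, SE 0.07, adjusted p = 8.4e-07), except on the uncentered TPM scale, where it turned to 0.49. NCOA4 (0.09, SE 0.06, adjusted p = 0.19) and SLC25A37 (-0.10, SE 0.14, adjusted p = 0.51) were not called; without OCI-Ly1 DMSO replicate 2, SLC25A37 was called at -0.40 (adjusted p = 9.0e-04), and NCOA4 was called at 0.17 (adjusted p = 0.0055) without TMD8 DMSO replicate 1, at 0.24 (adjusted p = 1.2e-04) without TMM scaling, at 0.32 (limma adjusted p = 1.2e-04) on centered TPM and at 1.04 (limma adjusted p = 7.2e-09) on uncentered TPM. SLC40A1 is counted among the 6 and among the 8 without overlap, but it stood at 0 against 4 counts. It passed the filter of this model only through the treated TMD8 libraries, so that nothing is read from its call or its lack of overlap.

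The lines were deposited in separate tables, and the order of their levels depended on the scale. On CPM scaled over all 18 libraries, TFRC was lowest with DMSO in OCI-Ly1 (519 CPM on average) and highest with 150 nM in TMD8 (1456 CPM), whereas in TPM it was highest with 500 nM in OCI-Ly1 (215 TPM, against 174 TPM with 150 nM in TMD8). FTL ran from 743 CPM with 150 nM in OCI-Ly1 to 2426 CPM with DMSO in TMD8, and at 500 nM the lines stood at 839 and 1523 CPM, an order that turned in TPM (1670 in OCI-Ly1 and 1119 in TMD8). FTH1 with 500 nM in OCI-Ly1 (219.5 ± 15.4 CPM) stood beside 500 nM TMD8 (222 ± 3.07 CPM; SD, n = 3), a pair that did not differ beyond their spread on this scale, after 124 and 249 CPM with DMSO. In TPM the DMSO groups were the near pair (149 ± 10.8 and 154 ± 16.2 TPM), and the 500 nM groups were at 291 ± 12.4 and 108 ± 8.34 TPM. IREB2 with 500 nM in TMD8 (148 CPM) lay above the untreated OCI-Ly1 level (94.3 CPM), and in TPM below it (12.4 and 19.6 TPM).

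Compared per length, as TPM within a library, the light chain stood far above the rest in both lines. The DMSO means in OCI-Ly1 were 1357 for FTL, 149 for FTH1, 136 for TFRC, 92.3 for NCOA4, 19.6 for IREB2, 18.7 for SLC11A2, 17.4 for ACO1, 15.7 for FBXL5 and 12.1 TPM for SLC25A37. The libraries of IREB2 and SLC11A2 overlapped, as did those of each pair among ACO1, FBXL5 and SLC25A37. In TMD8 the order was FTL (2262 TPM), FTH1 (154), TFRC (153), NCOA4 (44.8), IREB2 (23.3), ACO1 (12.2), SLC25A37 (6.59), SLC11A2 (4.55) and FBXL5 (3.50 TPM). There FTH1 and TFRC overlapped, as did SLC11A2 and FBXL5. SLC11A2 and FBXL5 stood lower in this order in TMD8 than in OCI-Ly1.

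The genes whose 4 changes against DMSO lay nearest to those of TFRC were DCP1B, HINT3 and PHYH, with root-mean-square differences of 0.0446, 0.0574 and 0.0641 on the log2 scale among 10289 genes. Nearest to FTH1 were MIIP (0.0246), CDIPT (0.0264) and SHMT2 (0.0557). MIIP, for example, had 0.79 in OCI-Ly1 and -0.11 in TMD8 at 500 nM. The 4 changes come from 2 doses that share their DMSO libraries.

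**Figure D4:**
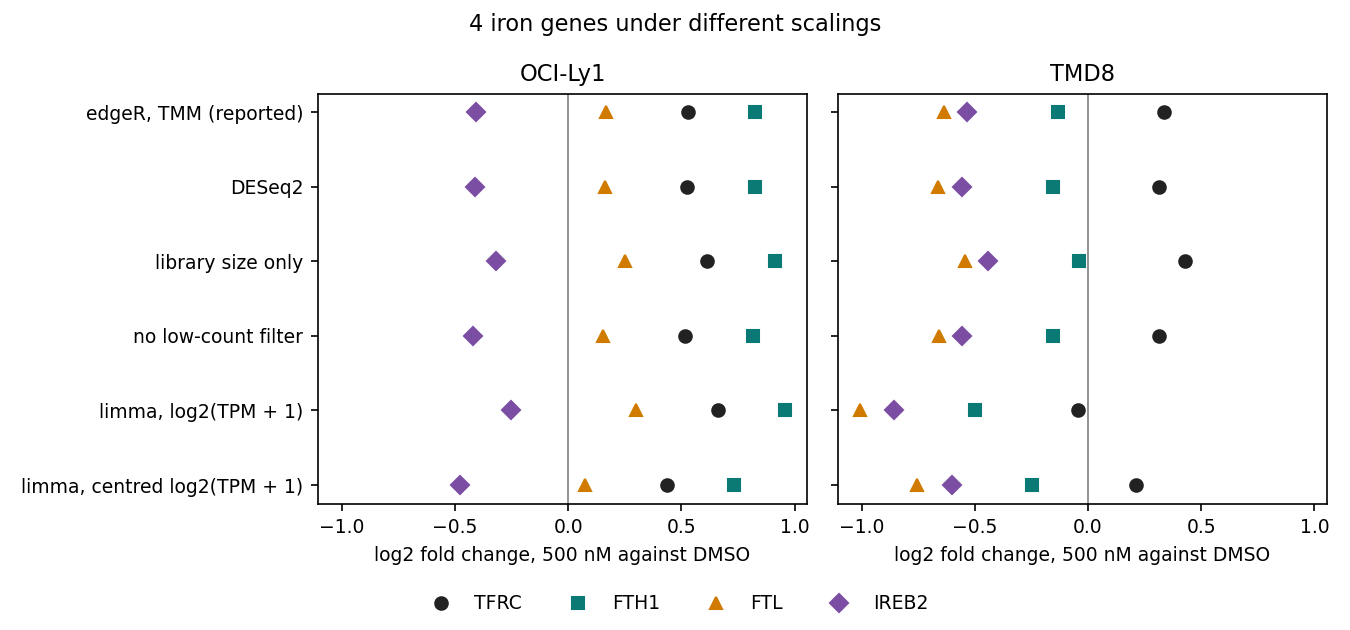
Log2 fold change at 500 nM against DMSO of TFRC, FTH1, FTL and IREB2 under 6 ways of scaling or filtering the data, without error bars. The order of the 4 genes is kept within each line, and TFRC in TMD8 moves from 0.34 to -0.042 on the uncentered TPM scale and stands at 0.21 after centering.

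The other genes of iron handling were counted by list at 500 nM, beside the shares of all genes given above. Of 8 tested genes of iron uptake and reduction in OCI-Ly1, 3 were called higher and 0 lower, with a list median of 0.08. Of 11 in TMD8, 2 were higher and 2 lower, with a median of 0.09. SLC39A14, a transporter of zinc and non-transferrin iron, rose by 0.45 (SE 0.06) in OCI-Ly1 and fell by 0.39 (SE 0.07) in TMD8. STEAP3, the endosomal reductase that works with the transferrin receptor, fell by 1.13 (SE 0.11, adjusted p = 9.0e-08) in TMD8. Of 6 iron chaperones and other storage or export genes, 1 was higher and 2 lower in each line, with medians of -0.29 and -0.06. PCBP1, a chaperone that hands iron to ferritin, fell by 0.54 (SE 0.07) and 0.55 (SE 0.05), while its relative PCBP2 rose by 0.37 (SE 0.06) in OCI-Ly1 and fell by 0.29 (SE 0.05) in TMD8.

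Ligase partners of FBXL5 were called lower where FBXL5 itself was not called. Of SKP1, CUL1 and RBX1, 0 were higher and 2 lower in OCI-Ly1 (list median -0.21) and 0 higher and 3 lower in TMD8 (median -0.43). The OCI-Ly1 call of SKP1 was lost without TMM scaling (-0.12, adjusted p = 0.074) and on uncentered TPM (-0.067, limma adjusted p = 0.37). RBX1, the RING subunit, fell by 0.38 (SE 0.06) and 0.64 (SE 0.07), in the order OCI-Ly1 and TMD8. Among other mRNAs with an iron-responsive element, the 1 tested in OCI-Ly1 was higher, and of 3 tested in TMD8, 2 were higher and 1 lower (median 0.34). CDC14A, a phosphatase with a 3′ element, rose by 0.89 (SE 0.21, adjusted p = 0.0016) in OCI-Ly1. Its value in TMD8, -0.22 (SE 0.09, adjusted p = 0.042), lost its call under 10 of 15 alternatives, among them DESeq2 (-0.24, adjusted p = 0.10), centered TPM (-0.041, limma adjusted p = 0.61) and leaving out DMSO replicate 1 or 2 or any 500 nM library (adjusted p from 0.057 to 0.16). CDC42BPA, a kinase with a 3′ element, rose by 0.34 (SE 0.05, adjusted p = 3.4e-05) in TMD8, a value of -0.036 on the uncentered TPM scale. EPAS1, the HIF-2α gene with a 5′ element, went from 0.325 to 5.74 CPM on average in TMD8 (adjusted p = 2.1e-09) and was too low to test in OCI-Ly1 (0.164 and 0.638 CPM). In TMD8, EPAS1 lay under the filter on low counts with DMSO and was tested only because of its treated libraries. That limits its call and its place among the 2 called higher. The hairpin search described above matched CDC14A, whereas its form was not found in EPAS1 or CDC42BPA.

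Genes of iron-sulfur and heme assembly were called in both directions. Of 21 genes of mitochondrial iron-sulfur assembly, 7 were higher and 6 lower in OCI-Ly1 (median -0.0017), and 3 higher and 13 lower in TMD8 (median -0.25). FDXR, the reductase that feeds electrons to the assembly, rose by 0.77 (SE 0.11) and 1.42 (SE 0.08), and NFS1, the cysteine desulfurase, fell by 0.55 (SE 0.09) in OCI-Ly1. Of 9 genes of cytosolic iron-sulfur assembly, 1 was higher and 1 lower in OCI-Ly1 (median 0.05), and 2 higher and 5 lower in TMD8 (median -0.20). CIAPIN1, an electron carrier of that pathway, fell by 0.31 (SE 0.06) and 0.68 (SE 0.07). Of 13 genes of heme synthesis and breakdown, 4 were higher and 2 lower in OCI-Ly1 (median 0.04), and 3 higher and 4 lower in TMD8 (median 0.09). HMOX1, which frees iron from heme, rose by 0.46 (SE 0.07, adjusted p = 5.4e-05) in OCI-Ly1 and by 0.20 (SE 0.05, adjusted p = 0.0025) in TMD8, a value that turned to -0.16 on the uncentered TPM scale and was not called on the centered one (0.09, limma adjusted p = 0.10). Its constitutive relative HMOX2 fell by 0.49 (SE 0.06) and 0.46 (SE 0.08).

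All 6 tested genes of the metallothionein and zinc export list were called higher in both lines at 500 nM, with medians of 4.12 and 3.40. In TMD8, MT1G and MT1E averaged 0.301 and 0.452 CPM with DMSO and passed the filter on low counts only through treated libraries. The TMD8 count therefore includes genes that were tested because they were high with treatment. MT2A, a metal-binding protein, went from 1.48 to 13.5 CPM in OCI-Ly1, and SLC30A1, the zinc exporter, from 2.11 to 15.7 CPM. Metallothionein genes are near-identical copies among which reads can be split, so single members are uncertain. The part of these metal-binding genes in the changes of TFRC and ferritin was not tested.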

How the data were processed

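Total RNA was depleted of ribosomal RNA and sequenced as paired ends, per the labels' protocols. The authors deposited, for each line, a table of estimated counts and one of TPM (transcripts per 1000000, a sum reached in each library). The submitters' processing notes name kallisto 0.46.0, R 4.3.1, DESeq2 1.40.2 and hg19. The index, the annotation, the strand setting and the step from transcripts to genes are not given in the sources used here, so no coordinates are printed, and overlapping or antisense genes cannot be told apart from their partners.

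Estimated counts were rounded and tested with edgeR 4.0.16 (R 4.3.3): TMM scaling, filterByExpr by group, quasi-likelihood tests on the 9 libraries of a line (15638 genes in OCI-Ly1, 15363 in TMD8) or on all 18 (16604), with Benjamini-Hochberg adjustment in each of 9 contrasts. The test was checked on simulated counts. Alternatives used DESeq2 1.42.0, limma 3.58.1 on log2(TPM + 1) or log2(TPM + 0.1), other filters and scalings, and leaving out each library. Levels printed per library are TMM-scaled CPM. Library pairs within groups differed by more than sampling noise (chi-square per degree of freedom from 1.65 to 11.5 over 18 pairs), so all libraries were kept. PCR reads without molecular identifiers are not independent molecules.

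The 10 genes and the 10 lists (100 genes, all matched, 4 by an older symbol) were chosen with earlier results of these data known, and a further list gene is not reported here. Named were all 10 genes; from each list up to 2 genes called higher and 2 called lower at 500 nM, by size, with at least 5 CPM in the higher group; HMOX1, EPAS1, CDC14A and CDC42BPA; and the 3 genes nearest to TFRC and to FTH1. Of these, those that show a list's range are printed.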

Additional observations from a re-analysis of the deposited data

Results flagged for a closer look

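The responses of 4 iron genes differed between the lines by the test of the difference itself (edgeR, 18 libraries, OCI-Ly1 minus TMD8). At 500 nM, FTH1 differed by 0.99 (adjusted p = 2.2e-10), FTL by 0.83 (adjusted p = 2.0e-08) and TFRC by 0.22 (adjusted p = 0.020). At 150 nM, IREB2 differed by 0.25 (adjusted p = 0.029). Of all 16604 genes, 46.4% were called in this test at 500 nM and 23.3% at 150 nM. Both ferritin genes were called in opposite directions in the lines, FTH1 at 0.83 in OCI-Ly1 and -0.13 in TMD8 and FTL at 0.16 and -0.64. The FTH1 call in TMD8 and the FTL call in OCI-Ly1 were lost under other settings, as were the TFRC and IREB2 calls of the line difference.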

How the results depend on the processing

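Of 324 values of single iron genes on TPM scales, 250 kept their side of the threshold with no turn in a called direction, and of 990 on counts, 944 did. In TMD8, uncentered TPM lowered the median of all tested genes to -0.22 (pseudocount 1) or -0.31 (pseudocount 0.1) at 500 nM and to -0.14 and -0.19 between the doses, from 0.04 and 0.01, and the share of calls that were higher from 49.3 to 18.8% at 500 nM, from 43.5 to 21.3% at 150 nM and from 47.9 to 10.4% between the doses. Library size alone gave 59.4% and 60.5% at the higher and the lower dose. The share in OCI-Ly1 with 500 nM was 51.6%, 71.9% on uncentered and 32.3% on centered TPM (medians 0.10 and -0.12), and 64.0% with library size alone. For the line difference at 500 nM it was 60.9%, 89.1% and 43.4% (median 0.38 uncentered), at 150 nM 64.2%, 85.2% and 47.0% with library size alone, and between the DMSO groups 49.2% and 79.5% (median 0.61 uncentered).

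Of the counts of iron genes called, that for OCI-Ly1 at 150 nM (1) was 2 by DESeq2, 2 without the low-count filter, 0 on centered TPM and 1 to 2 when a library was left out. For TMD8 it was 2 at 150 nM on unfiltered TPM in place of 4, and 8 at 500 nM on each uncentered TPM scale in place of 5. The line difference at 150 nM (1) was 2 by DESeq2, 0 with library size only, 2 without the low-count filter, 2, 3 and 3 on log2(TPM + 1), log2(TPM + 0.1) and unfiltered TPM, and 0 to 2 when a library was left out; at 500 nM (3) the same TPM scales gave 9, 9 and 8. On the same TPM scales, all genes called at 500 nM were 9332, 9340 and 9202 in TMD8 in place of 9324. They were 10216, 9773 and 10261 for the line difference at 500 nM in place of 7699. For the line difference at 150 nM (3867) they were 3876 by DESeq2, 3652 with library size only and 4001 without the low-count filter. The TPM scales gave 4027, 3961 and 3631 there. The cause of these shifts was not tested. Values not called under either setting also changed sign elsewhere, among them SLC25A37 without OCI-Ly1 DMSO replicate 2 (0.06 at 500 nM in OCI-Ly1 and 0.055 for the line difference at 500 nM) and ACO1 at 500 nM in OCI-Ly1 (-0.026 without DMSO replicate 3). Directions called under the main or the other setting turned only on uncentered TPM, here for log2(TPM + 1) and log2(TPM + 0.1): at 500 nM in TMD8, TFRC (-0.042 and -0.042), SLC25A37 (-0.28 and -0.32), NDOR1 (-0.0026 and -0.0031), HMOX1 (-0.16 and -0.17), HERC2 (-0.20 and -0.22), CDC42BPA (-0.036 and -0.040), NARFL (-0.10 and -0.12), BLVRB (-0.010 and -0.011) and ALAS1 (-0.11 and -0.11); for the line difference at 500 nM, SLC11A2 (0.34 and 0.43) and FBXL5 (0.34 and 0.44); between the DMSO groups, ACO1 (0.49 and 0.52) and SLC25A37 (0.75 and 0.83).

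All genes called in OCI-Ly1 at 150 nM (139) were 239 by DESeq2, 323 without the low-count filter, 47 to 74 on the TPM scales, 81 from 2 groups only and 65 to 339 when a library was left out; those in TMD8 at 150 nM (6790) were 4284 on unfiltered TPM. Same-numbered libraries of different groups correlated above 0.1 in 2 of 9 pairs in each line. Differently numbered libraries did so in 0 of 18 pairs in OCI-Ly1 and 1 of 18 in TMD8. In OCI-Ly1 both same-numbered pairs joined DMSO with 150 nM (r = 0.259 each). Median correlations of same-numbered pairs were -0.003 in OCI-Ly1 and -0.011 in TMD8. The main model did not use the replicate numbers. With the replicate block, 1, 5 and 6 iron genes were called in OCI-Ly1 at 150 nM, at 500 nM and between the doses, 4, 5 and 3 in TMD8, 1 and 3 for the line differences, and 7 between the DMSO groups. All genes called with the block were 207, 8615 and 7540 of 15638 in OCI-Ly1 and 6827, 9390 and 4582 of 15363 in TMD8. Of 16604 genes, 4156 and 7888 were called for the line differences and 11864 between the DMSO groups. Few counts limited SLC40A1.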

Other observations

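Outside the iron genes proper, 2 lists were counted at 500 nM. Of all genes tested, 27.7% were called higher and 25.9% lower in OCI-Ly1, and 29.9% and 30.7% in TMD8. Of 9 tested HIF targets, 6 were called higher and 0 lower in OCI-Ly1 (median 0.27), and 4 higher and 1 lower in TMD8 (median -0.01). VEGFA, an angiogenic factor, rose by 2.90 (SE 0.14) in OCI-Ly1 and by 0.79 (SE 0.06) in TMD8, and NDRG1 rose by 2.41 (SE 0.12) in TMD8. In OCI-Ly1, NDRG1 lay at 3.58 to 3.90 when single libraries were left out. The naming rule did not select it there, since its mean stayed under 5 CPM in both groups. Of the NRF2 targets, 1 of 8 was higher and 4 lower in OCI-Ly1 (median -0.15), and 2 of 7 were higher and 3 lower in TMD8 (median -0.09). SLC7A11, the cystine transporter, rose by 1.59 (SE 0.07) and 1.43 (SE 0.06), while TXNRD1, thioredoxin reductase, fell by 0.26 (SE 0.05) and 0.56 (SE 0.05) and SRXN1 by 0.37 (SE 0.06) and 0.75 (SE 0.10). The OCI-Ly1 call of TXNRD1 was lost on uncentered TPM (-0.13, limma adjusted p = 0.064).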
